A study of Mus musculus with 46 samples.

Results

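ZC3H11A knockdown was compared with a control hairpin in AML12 cells by RNA sequencing. Of the 46 libraries of the series, 6 belong to this comparison. They were chosen by their labels, 3 from cells with a hairpin against ZC3H11A and 3 from cells with a control hairpin. A hairpin is a short RNA, made from a vector in the cell, that directs the breakdown of the messenger RNA it matches. AML12 is an established mouse hepatocyte line, derived from the liver of a mouse transgenic for human transforming growth factor alpha, so these cells were growing in culture and carried that transgene in both groups. No other genotype, treatment or time point is named for these libraries. Another set of 3 libraries in the same table, with a hairpin against the long noncoding RNA Falcor, was used to ask where the ZC3H11A knockdown differed from another knockdown. The series addressed what Falcor does in nuclear speckles and whether it acts with ZC3H11A. The labels do not give the number of hairpins per gene, the days after delivery, whether the cells were clones or pools, or whether replicates were separate cultures, so the p-values cover the spread of the libraries at hand and no more, and that spread may be technical in part.

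ZC3H11A is a zinc finger protein of the CCCH type that associates with the TREX complex. TREX is loaded onto messenger RNA during transcription and splicing, and it hands finished messages to the export receptor NXF1, which carries them through the nuclear pore. ZC3H11A is enriched in nuclear speckles, the bodies that concentrate splicing factors. Total RNA depleted of ribosomal RNA was sequenced here, so nuclear and cytoplasmic RNA were measured together and export itself was not measured.

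The 3 control libraries held 5880490 to 8837581 counts and the 3 ZC3H11A knockdown libraries 4732139 to 7373814. Of 56775 listed genes, 11871 passed the filter on low counts and were tested. Levels are given in CPM, that is each count relative to its library's total, adjusted by the trimmed mean of M-values, and a gene was called when its Benjamini-Hochberg adjusted p from edgeR's quasi-likelihood test over all tested genes was below 0.05. CPM is not divided by transcript length, so levels of different genes are not compared. No replicate pair within a group agreed within counting noise, and no library was left out. Of 12 hepatocyte markers, 8 were tested and 3 (Tat, Asgr1 and G6pc) had 10 or fewer counts over the 6 libraries. The markers that define other liver cells were mostly at such levels too. Of 10 stellate cell and fibroblast markers 7 were, among them Col1a2, Pdgfrb and Lrat, of 8 endothelial markers 6, and of 8 macrophage and leukocyte markers 5, including Ptprc and Clec4f. In bulk samples, fewer cells of a kind and less RNA per cell cannot be told apart.

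The targeted transcript was lower in every knockdown library. Zc3h11a, on the minus strand of chromosome 1 (chr1:133619862-133661380, build mm10, ENSMUSG00000102976.6), stood at 64.6, 67.4 and 58.8 CPM in the controls and at 4.59, 14.1 and 5.995 CPM after knockdown. The groups did not overlap, and the second knockdown library kept the most. The log2 fold change was -3.03 ± 0.29 (SE), with an adjusted p of 2.03e-05. In the Falcor knockdown libraries Zc3h11a stood at 38.9, 32.4 and 41.1 CPM, between the other groups, and the ZC3H11A knockdown was lower than these as well (log2 -2.28, adjusted p = 1.34e-04).

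Zbed6 lies within the Zc3h11a gene. It is annotated as a single exon of 5007 bp (chr1:133655879-133660885) on the same strand, and it encodes a transcription factor of transposon origin known to repress Igf2. Of the 13 annotated Zc3h11a transcripts, 11 span it and 2 share exon bases with it. Zbed6 had 129, 142 and 109 CPM in the controls and 46.4, 51.7 and 38.9 CPM after ZC3H11A knockdown. It fell by 1.48 on the log2 scale (adjusted p = 3.73e-05), and the groups did not overlap. The Falcor knockdown libraries held similar values of 30.5, 50.4 and 46.5 CPM, and the difference between the knockdowns was 0.10 ± 0.18 on the log2 scale (SE, adjusted p = 0.664). How reads were split between the overlapping Zc3h11a and Zbed6 models is not given, so Zbed6 levels are uncertain.

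Falcor itself held few counts in these cells. Its gene, listed as 9030622O22Rik (chr2:147944740-148040203), had 4.40, 1.98 and 3.93 CPM in the controls against 0.557, 0.662 and 1.09 CPM after ZC3H11A knockdown. The highest knockdown library was below the lowest control, and the difference was called at log2 -2.17 ± 0.52 (SE, adjusted p = 0.00226). The values rest on 73 counts over the controls and 13 over the knockdown libraries. With the Falcor hairpin, Falcor stood at 1.14, 0.836 and 0.549 CPM, also on few counts. The difference between the knockdowns was -0.10 ± 0.62 on the log2 scale (SE, adjusted p = 0.904) and was not called. Foxa2, the neighbouring gene for a liver transcription factor, had 92.2, 93.1 and 103 CPM in the controls and 98.1, 92.5 and 119 CPM after ZC3H11A knockdown. These ranges overlapped, and the difference of 0.11 ± 0.10 on the log2 scale was not called (adjusted p = 0.386). With the Falcor hairpin, Foxa2 stood at 35.7, 31.4 and 35.5 CPM, and the ZC3H11A knockdown lay above those libraries by 1.59 (adjusted p = 5.01e-10).

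**Figure D1:**
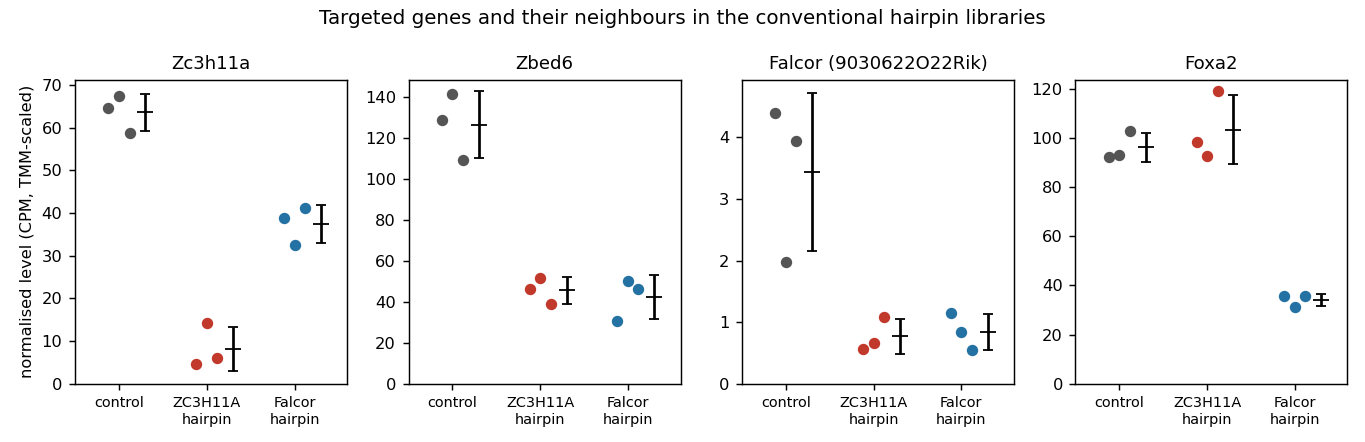
Normalised level (CPM) of Zc3h11a, Zbed6, Falcor (9030622O22Rik) and Foxa2 in each of the 9 libraries with a conventional hairpin; points are libraries, and bars give the mean and SD of 3. Zc3h11a, Zbed6 and Falcor lie below the controls in every ZC3H11A knockdown library, while Foxa2 is low only with the Falcor hairpin.

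Many genes differed in level between the ZC3H11A knockdown and control libraries, in both directions. Zc3h11a and Zbed6 both fell in the knockdown libraries, and their separate parts in these differences were not tested. Of the 11871 genes tested, 5757 were called, which is 48.5% of them. The calls were split evenly, with 2867 genes higher (24.2%) and 2890 lower (24.3%). Most changes were modest, and the median size among called genes was 0.69 on the log2 scale. At least 2-fold changes were called for 1664 genes (14.0%). Of these, 663 were higher (5.59%) and 1001 lower (8.43%). The knockdown and control libraries did not overlap for 6638 genes (55.9%). Gene groups below are read against these shares, since a group with such shares called in each direction is like the rest of the table. The shares cover genes of every level, and the lists were not matched for level. Under a stricter filter of 10 CPM in 3 libraries, 5184 of 8775 genes were called, a larger share. The median log2 fold change over all tested genes was 0.00.

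**Figure D2:**
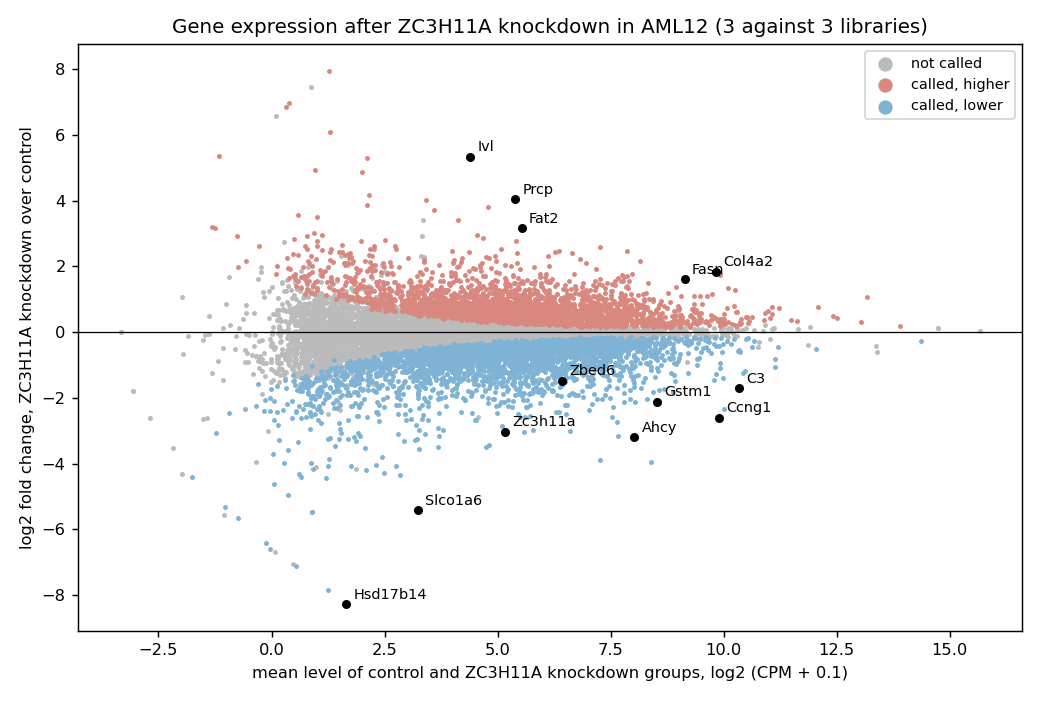
Log2 fold change of ZC3H11A knockdown over control (vertical axis) against the mean level of both groups as log2 (CPM + 0.1) (horizontal axis), one point per tested gene, with called genes in colour. The 2867 higher and 2890 lower genes spread over the whole range of levels, and the named genes include Zc3h11a and several of the largest changes.

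The 12 largest increases, among called genes with a mean of at least 5 CPM and no overlap of the groups, were led by genes that were close to silent in control cells. Ivl encodes involucrin, a component of the cornified envelope of skin (chr3:92570902-92573735). It had 0.579, 0.719 and 1.80 CPM in the controls and 32.6, 36.0 and 53.4 CPM after knockdown, a log2 fold change of 5.33 ± 0.32 (SE, adjusted p = 5.75e-10). Every knockdown library was far above every control. Cd80, a costimulatory ligand for T cells, went from 0.347, 0 and 0.164 to 8.07, 6.84 and 9.81 CPM. The controls held 4 Cd80 counts in all and the knockdown libraries 143, so the ratio of 42.2 has a counting interval of 16.1 to 157 (exact, 95%, counting error only). Dock10, an exchange factor for small GTPases, went from 0.463, 0 and 0.164 to 8.63, 5.96 and 8.18 CPM.

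Prcp, a lysosomal carboxypeptidase, was at 5.67, 3.77 and 4.59 CPM in the controls and 84.6, 78.4 and 74.7 CPM after knockdown. Its log2 fold change was 4.04 ± 0.16 (SE, adjusted p = 1.69e-12). Fat2, an atypical cadherin, rose from 6.599, 8.45 and 13.3 to 93.3, 77.5 and 77.6 CPM, and Tlcd3a, a membrane protein with a TLC domain, from 4.28, 1.62 and 4.92 to 51.6, 51.9 and 50.9 CPM. In each of these genes the 3 knockdown libraries were close together and the controls lay well below. Espl1, which encodes separase, the protease that releases sister chromatids, rose by 3.85 on the log2 scale. The beta-defensin gene Defb1 rose by 3.70 and Fam136a by 2.96, while Xpnpep2, a membrane aminopeptidase, went from 3.01, 1.98 and 3.93 to 30.5, 32.0 and 32.9 CPM. H2-M9 and Vmn2r79 (log2 4.17 and 4.01) belong to multigene families with close copies, so their values are uncertain. All 12 genes were also higher than in the Falcor knockdown libraries, by 1.34 to 6.61 on the log2 scale. The mean with the Falcor hairpin was itself above the control mean for Cd80, Tlcd3a, Xpnpep2, Fam136a, Prcp, Dock10, Espl1 and Fat2. It was below the control mean for Ivl, H2-M9, Vmn2r79 and Defb1. With that hairpin Tlcd3a stood at 17.3, 16.1 and 18.2 CPM, between the other groups, and Ivl at 0.326, 0.209 and 0.549 CPM.

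The largest decreases included several metabolic enzymes and a transporter, and 10 of the 12 are described. Hsd17b14, a hydroxysteroid dehydrogenase gene (chr7:45554893-45567752), had 4.40, 5.75 and 8.03 CPM in the controls and no count in any knockdown library. Set against a floor of 3 counts over the knockdown group, it was at least 33.6-fold lower. Slco1a6, an organic anion transporter, went from 17.4, 19.2 and 18.4 CPM to 0.278, 0.442 and 0.545 CPM. Its knockdown libraries did not reach the controls. Dhodh, the mitochondrial enzyme of pyrimidine synthesis, fell by 4.19 on the log2 scale, and Ggt1, which cleaves extracellular glutathione, fell by 4.06. The fucose mutarotase gene Fuom fell by 4.03. The complement protease gene C1s1 fell by 3.79 and the corepressor gene Tle6 fell by 3.53. Ugt2b36, one of a family of near-identical glucuronosyltransferases whose reads may be split between copies, had a log2 fold change of -4.27.

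Cxcl5, a chemokine that attracts neutrophils (chr5:90759360-90761624), had 578, 637 and 667 CPM in the controls and 47.2, 37.3 and 37.1 CPM after knockdown, or log2 -3.94 ± 0.13 (SE, adjusted p = 5.03e-10). The groups were far apart. Against the Falcor knockdown, 9 of these 10 decreased genes were lower, and Slco1a6 was not called. The mean with the Falcor hairpin was itself below the control mean for Cxcl5, Ugt2b36, Ifit1, Hsd17b14, Dhodh and Slco1a6. For Ggt1, Fuom, Tle6 and C1s1 it was above the control mean. Cxcl5 was at 130, 106 and 93.4 CPM with that hairpin. Slco1a6 stood at 0, 0 and 0.659 CPM with the Falcor hairpin, and the difference between the knockdowns was 0.46 ± 0.82 (SE, adjusted p = 0.664). C1s1 moved the other way with that hairpin, to 33.9, 44.95 and 37.0 CPM against 8.57, 10.1 and 11.3 CPM in the controls.

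**Figure D3:**
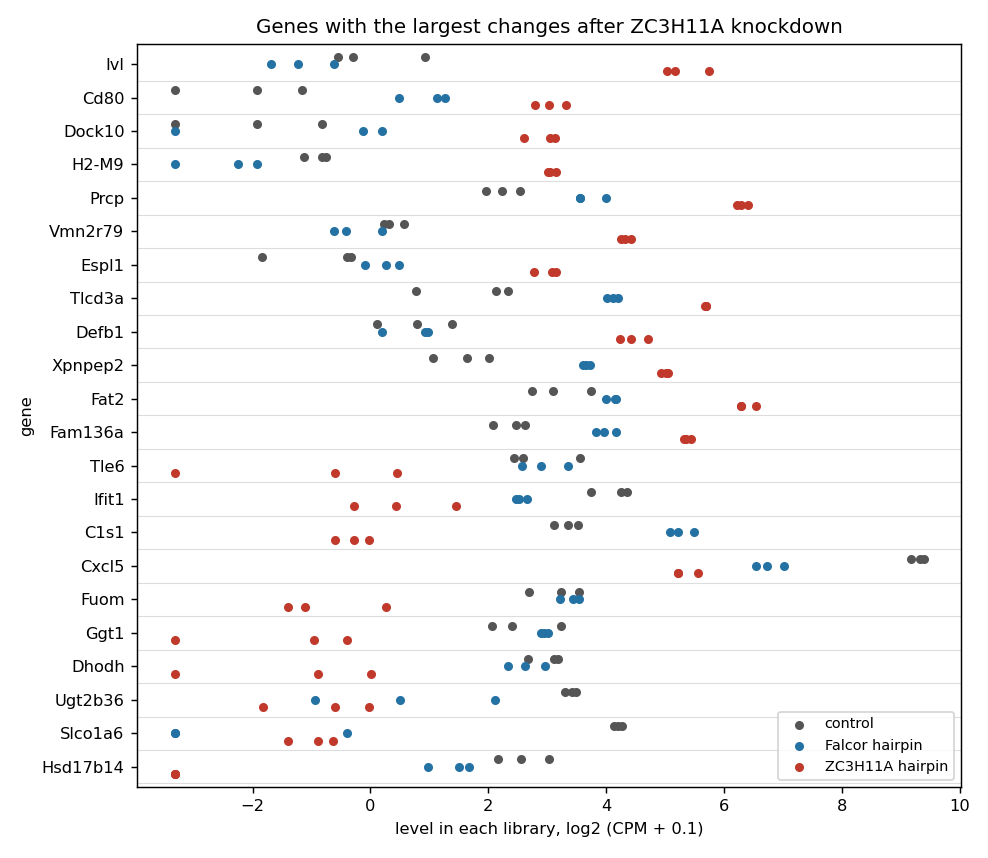
Level in each library, as log2 (CPM + 0.1), of the 12 genes with the largest increase and 10 of the 12 with the largest decrease after ZC3H11A knockdown; each point is 1 library and the colours give the hairpin. The knockdown and control points do not overlap in any row, and in the Slco1a6 row the points of the ZC3H11A and Falcor hairpins both lie below the controls.

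Genes of the machinery that ZC3H11A belongs to were called in both directions. Of 24 tested TREX genes, 6 were higher and 6 lower, a share near the 48.5% of all genes. Their median was 0.08 on the log2 scale, and 0.04 to 0.13 with 1 library left out. Ncbp3, a cap-binding protein that joins TREX, rose from 47.6, 47.4 and 44.8 CPM to 91.6, 90.3 and 93.9 CPM (log2 0.98 ± 0.09, adjusted p = 9.98e-08). Thoc5, a subunit of the THO core, rose from 36.9, 34.3 and 42.8 to 66.3, 53.4 and 80.7 CPM. Eny2, which is shared by the TREX-2 export complex and the SAGA coactivator, fell from 17.7, 17.6 and 13.8 to 4.87, 4.86 and 2.36 CPM (log2 -2.01, adjusted p = 1.40e-05). None of the 3 overlapped between groups. Mcm3ap, the scaffold of TREX-2, rose by 0.42.

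The nuclear pore list had 9 of 28 members higher and 3 lower. Nup214, on the cytoplasmic face of the pore, rose from 133, 129 and 131 to 204, 207 and 237 CPM and Nup160, of the outer ring, from 24.9, 25.7 and 23.1 to 55.7, 50.1 and 52.0 CPM. Both groups of values were tight and separate. Nup188 and Nup155, of the inner ring, rose by 0.59 and 0.53. In the nuclear exosome and its adaptors, 5 of 18 genes were higher and 1 lower. The higher count was 2 without ZC3H11A knockdown replicate 1, and 3 without any one of the controls, by DESeq2 or with no scaling beyond library size. No gene was lower without control replicate 1. Mtrex, the helicase that feeds RNA to the exosome, rose from 35.2, 39.5 and 36.6 to 51.9, 49.9 and 56.7 CPM.

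Splicing factor genes were called in both directions. Of 27 nuclear speckle and SR protein genes, 7 were higher and 8 lower. Srrm1, a splicing coactivator of speckles, fell from 229, 227 and 215 to 158, 171 and 153 CPM and Srsf5 from 108, 102 and 103 to 69.3, 55.9 and 76.3 CPM, while the splicing regulator Tra2b rose from 24.4, 23.7 and 19.2 to 38.1, 36.6 and 31.4 CPM. The groups were separate in all 3. Leaving out control replicate 1 left 4 higher genes, and leaving out control replicate 2 left 5 lower. Of 30 core spliceosome genes, 4 were higher and 8 lower, with 2 higher and 5 lower without control replicate 1. The same count of 2 higher was found without control replicate 2, ZC3H11A knockdown replicate 1 or ZC3H11A knockdown replicate 3, by DESeq2 and with no filter. Sf3b2, a subunit of the branch site complex, fell from 435, 439 and 459.6 to 262, 265 and 278 CPM (log2 -0.73 ± 0.06, adjusted p = 1.15e-08), and its partner Sf3b1 fell by 0.42. Of 21 hnRNP genes 3 were higher and 6 lower. Hnrnpu, a nuclear matrix protein, fell from 99.3, 104 and 91.3 to 60.7, 61.1 and 47.4 CPM.

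Other CCCH zinc finger genes were called in both directions, 8 of 23 higher and 9 lower. The largest of the named changes were in genes for messenger RNA decay factors. Zc3h12a encodes Regnase-1, a nuclease that degrades inflammatory messages. It went from 69.0, 67.4 and 70.8 CPM to 24.8, 24.1 and 22.4 CPM (log2 -1.54 ± 0.09, adjusted p = 4.24e-10). Zfp36l1, which binds AU-rich elements and promotes decay, fell from 292, 328 and 256 to 120.0, 134 and 119 CPM. Neither gene's groups overlapped, and both were lower than with the Falcor hairpin (log2 -1.43 and -0.71).

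Among 15 abundant noncoding RNAs, 2 were higher and 1, Norad, was lower. The lower count was 3 by DESeq2 and 2 with a replicate block. Neat1, the scaffold of paraspeckles, stood at 824, 699.5 and 596 CPM in the controls and at 1558, 1888 and 1687 CPM after ZC3H11A knockdown. Every knockdown library held more than any control, and the log2 fold change was 1.27 ± 0.19 (SE, adjusted p = 0.00105). In the Falcor knockdown the level was 529, 814 and 639.9 CPM, and the difference between the knockdowns was 1.37 (adjusted p = 5.49e-04). Firre, another nuclear RNA, rose from 36.1, 43.1 and 41.5 to 78.1, 77.9 and 64.7 CPM, and in the Falcor knockdown it was at 60.4, 72.8 and 54.5 CPM.

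Fatty acid oxidation was the metabolic list with the lowest median. Of 23 tested genes of fatty acid oxidation and targets of PPAR alpha, the receptor that drives this pathway in fasting liver, 16 were lower and 3 higher, with a median of -0.74 on the log2 scale. The thioesterase gene Acot2 fell from 49.8, 55.7 and 57.5 to 13.8, 15.2 and 15.3 CPM (log2 -1.88 ± 0.11, adjusted p = 2.34e-10). Acaa2, the thiolase of the last step of mitochondrial beta-oxidation, fell from 134, 133 and 131 to 52.1, 42.6 and 57.4 CPM. Acot1, a close copy of Acot2 with which reads may be shared, fell from 167, 170.3 and 194 to 80.6, 72.2 and 85.4 CPM. The knockdown libraries of all 3 genes lay below every control. Ppara itself, listed with the transcription factors, fell from 114, 125 and 99.98 to 66.4, 63.1 and 66.3 CPM. The list did not move as one against the Falcor knockdown, where 9 members were higher and 10 lower. Acot2 and Acaa2 differed from it by -2.77 and -1.72 on the log2 scale.

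Glycolysis and gluconeogenesis genes were mostly lower too, 14 of 23 against 6 higher (median -0.47). Pfkl, the liver phosphofructokinase, went from 83.4, 83.0 and 92.0 CPM to 20.3, 14.8 and 19.98 CPM (log2 -2.21 ± 0.11, adjusted p = 2.15e-11). Gpi1, the phosphoglucose isomerase, went from 653, 651 and 645 to 334, 329 and 326 CPM and Eno3, an enolase, from 56.3, 55.3 and 64.1 to 23.8, 22.96 and 22.5 CPM. Pgam1, the phosphoglycerate mutase between them in the pathway, moved the other way, from 483, 499 and 528 to 1052, 1004 and 1175 CPM. All 4 had separate groups. Against the Falcor knockdown, 17 members were lower and 3 higher, where 28.4% and 28.6% of all tested genes were called in these directions.

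Targets of hypoxia-inducible factors had 12 of 20 members lower and 2 higher, with a median of -0.64. Ndrg1, a stress-responsive gene, fell from 820.0, 832 and 867 CPM to 373, 374 and 306 CPM (log2 -1.26 ± 0.07, adjusted p = 2.44e-10). P4ha1, a collagen prolyl hydroxylase, fell from 113, 113 and 113 to 47.6, 53.6 and 44.2 CPM. Egln3, an oxygen sensor that marks these factors for destruction, fell from 116, 115 and 111 to 52.6, 51.9 and 49.2 CPM, and Vegfa, the vascular growth factor, from 119.8, 124 and 101 to 61.1, 62.0 and 59.0 CPM. Within each group the 3 libraries were close, and no gene of the 4 overlapped. Several enzymes of glycolysis are on this list as well, so the lists are not independent.

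More inflammatory genes fell than rose. Of 26 NF-kB targets and regulators, 13 were lower and 5 higher, with a median of -0.36. The lower genes included secreted signals. Csf1, the macrophage growth factor, went from 631, 643 and 610.1 CPM to 204, 188 and 177 CPM (log2 -1.73 ± 0.07, adjusted p = 1.39e-12). Cxcl1, a neutrophil chemokine, went from 229.9, 289 and 256 to 89.5, 97.1 and 94.7 CPM, and the adhesion molecule Icam1 from 29.3, 30.7 and 31.6 to 6.402, 4.86 and 5.45 CPM. With Cxcl5 these are the named members, and all 4 were lower in every knockdown library than in any control and lower than with the Falcor hairpin. The count of higher members was 2 without control replicate 1 or control replicate 2 and in a fit of the 6 control and ZC3H11A libraries alone. It was 3 without ZC3H11A knockdown replicate 3, by DESeq2 and under the stricter filter of 10 CPM in 3 libraries.

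Interferon-induced genes numbered 9 lower and 4 higher of 23, with a median of -0.41, or -0.24 among the 13 that passed a filter of 10 CPM in 3 libraries. Ifit1, an RNA-binding antiviral protein, fell from 20.3, 18.9 and 13.3 to 1.25, 2.65 and 0.727 CPM (log2 -3.56 ± 0.32, adjusted p = 6.29e-08). The exonuclease gene Isg20 fell from 158, 161 and 155 to 66.8, 77.3 and 83.4 CPM. Oas3, which makes the activator of RNase L, rose from 9.15, 10.4 and 8.85 to 40.6, 32.0 and 34.0 CPM, and the ubiquitin ligase gene Trim25 from 98.2, 88.8 and 100.1 to 181, 171 and 189 CPM, so the list held separate groups in opposite directions. In MHC class I antigen presentation, 5 of 10 genes were lower and 0 higher by edgeR, DESeq2 and limma-voom and at an unadjusted p below 0.05 (median -0.44, or -0.92 over the 7 genes that passed 10 CPM). H2-M9, given above among the largest increases, is not one of these tested members. B2m, the invariant chain of class I molecules, went from 515, 534 and 526 to 266, 252 and 262 CPM. Psme1 and Psme2, subunits of the proteasome activator, had log2 fold changes of -1.96 and -0.91, and Erap1, which trims peptides, fell by 2.10.

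The promoters of these groups were searched for short motifs, 1 for each list, as a description of their sequence. The windows ran from 250 bases before to 50 after the start of 32851 RefSeq promoters (build GRCm38.p6), and both strands were read. The NF-kB motif was GGGA and TTCC with any 2 bases between them, the interferon response element a GAAA pair with any 2 bases between the copies, and the hypoxia response core ACGTG. None is part of another. The NF-kB motif was in 1.47% of all windows and in 6 of 18 list members with a window, 4 of the 10 lower and 1 of the 3 higher members. The interferon motif was in 3.44% of windows and in 9 of 18 members, 3 of 8 lower and 2 of 4 higher. The hypoxia core, at 5 letters, was in 19.6% of windows, and in 13 of 17 members, 9 of 10 lower and 2 of 2 higher. Counted over the 8872 tested genes with a window, as the members are, the shares were 1.81% for the NF-kB motif, 3.54% for the interferon motif and 29.9% for the hypoxia core. The lists were made up of known targets, so matches among members are no independent finding, and matches stood in members of both directions. The 150 bases before the start are shown for 3 named members whose levels fell, with the matches in capitals (the 2 strands of the Cxcl1 match overlap by all but 1 base). Ifit1 (chr19:34640739-34640888), Cxcl1 (chr5:90891095-90891244) and P4ha1 (chr10:59323146-59323295) are all on the plus strand and read 5′ to 3′.
Ifit1: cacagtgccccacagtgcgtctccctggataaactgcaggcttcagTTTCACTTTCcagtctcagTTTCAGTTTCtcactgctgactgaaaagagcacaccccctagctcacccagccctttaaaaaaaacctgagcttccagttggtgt
Cxcl1: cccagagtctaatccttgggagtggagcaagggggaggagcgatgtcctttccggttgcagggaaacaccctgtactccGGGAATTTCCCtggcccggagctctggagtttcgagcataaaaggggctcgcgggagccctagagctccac
P4ha1: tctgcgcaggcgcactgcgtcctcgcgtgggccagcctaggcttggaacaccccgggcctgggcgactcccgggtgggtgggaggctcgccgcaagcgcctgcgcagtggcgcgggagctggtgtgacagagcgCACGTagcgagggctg
In Ifit1 the matches begin 104 and 85 bases before the start, in Cxcl1 71 and 70 and in P4ha1 16. A match describes letters only and does not show that a factor was bound.

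Acute phase proteins, which the liver secretes in inflammation, had 5 of 12 genes lower and 2 higher (median -0.73). C3, the central complement component, went from 1944, 1989 and 1974 CPM in the controls to 632, 603 and 575 CPM after knockdown (log2 -1.71 ± 0.06, adjusted p = 2.39e-13). Lcn2, an iron-scavenging protein, went from 1929, 1796 and 2057 to 869, 823 and 750.1 CPM, and Stat3, the transcription factor downstream of interleukin 6, from 165, 175 and 166 to 72.7, 70.9 and 62.5 CPM. Orm1, the orosomucoid gene, rose from 4.75, 4.31 and 5.41 to 29.0, 24.7 and 26.0 CPM. None of these groups overlapped.

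**Figure D4:**
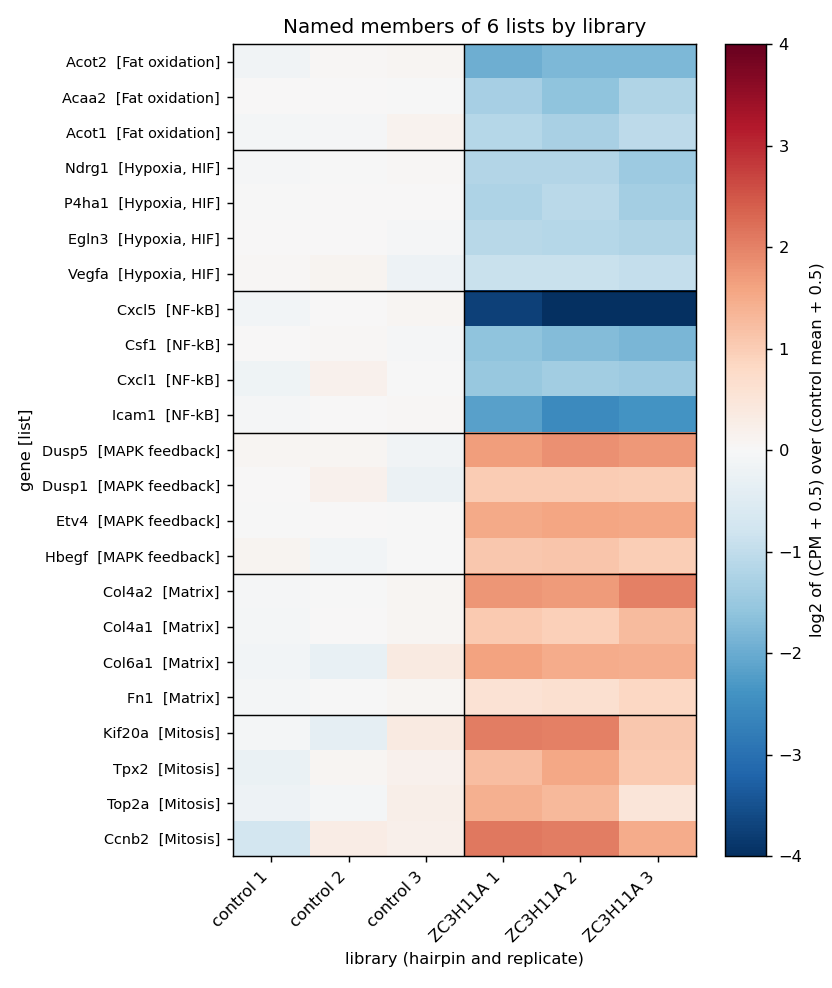
Difference of each library from the control mean, on a log2 scale of CPM + 0.5, for 3 or 4 named members each of 6 gene lists; rows are genes and columns the 3 control and 3 ZC3H11A knockdown libraries. Blue rows (fat oxidation, hypoxia and NF-kB members) and red rows (MAP kinase feedback, matrix and mitosis members) keep 1 colour across the 3 knockdown libraries, palest in replicate 3 for the mitosis genes Kif20a and Top2a.

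Immediate early genes, which respond within minutes to growth factors and stress, had 11 of 20 members higher and 2 lower (median 0.50). Fosl1, a partner in the AP-1 transcription factor, rose from 10.8, 13.3 and 10.2 CPM to 42.0, 51.9 and 59.95 CPM (log2 2.17 ± 0.16, adjusted p = 5.50e-09). Egr1 rose from 587, 523 and 469 to 1101, 1049 and 1398 CPM and Junb from 469, 547 and 469.6 to 727, 804 and 878 CPM. Every knockdown library was above the controls in these genes. Against the Falcor knockdown, 17 of the 20 members were higher and 2 lower.

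Feedback regulators of MAP kinase signalling and the ETV transcription factors, which read out the activity of that pathway, had 11 of 19 genes higher and 1 lower (median 0.48). The lower one, Phlda1, was not called without ZC3H11A knockdown replicate 1 or replicate 3, with a replicate block, by DESeq2 or with upper quartile scaling, and 2 were lower under the stricter filter. Dusp5, a phosphatase that acts on ERK in the nucleus, rose from 32.0, 32.2 and 27.4 to 98.4, 109.5 and 104 CPM (log2 1.76 ± 0.10, adjusted p = 2.14e-10). Etv4 rose from 15.3, 15.6 and 15.2 to 44.8, 47.5 and 46.3 CPM, and Hbegf, a ligand of the epidermal growth factor receptor, from 61.7, 52.8 and 57.0 to 122, 123 and 114 CPM. The groups were separate. Dusp1 had 142, 159 and 121 CPM in the controls, 286, 283 and 280.1 CPM with the ZC3H11A hairpin and 18.4, 16.1 and 19.8 CPM with the Falcor hairpin, so the knockdowns lay on opposite sides of the controls and differed by 3.95 ± 0.10 on the log2 scale (SE, adjusted p = 8.51e-15).

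Mitosis genes were the list with the highest median. Of 24 tested, 18 were higher and 0 lower by edgeR, with a median of 1.41. At an unadjusted p below 0.05, and by DESeq2 and limma-voom, the count of lower genes was 0 as well. Most had few counts, and only 5 passed a filter of 10 CPM in 3 libraries, of which 4 were higher with a median of 0.71. Top2a, the topoisomerase of dividing cells, had 17.1, 18.7 and 23.6 CPM in the controls and 53.7, 49.4 and 28.2 CPM after knockdown (log2 1.15 ± 0.21, adjusted p = 3.34e-04). Kif20a, a kinesin of cytokinesis, had 2.08, 1.62 and 2.95 CPM and 10.7, 10.4 and 5.27 CPM, and Tpx2, a spindle assembly factor, 3.94, 5.03 and 5.41 CPM and 11.97, 15.0 and 10.4 CPM. Knockdown replicate 3 was the lowest of its group for each of them and still above the controls. Between 14 and 19 members were higher when any one library was left out. DNA replication genes were split, with 7 of 26 higher, or 3 under the stricter filter, and 4 lower. Mcm5, a subunit of the replicative helicase, went from 0.695, 1.44 and 0.983 to 7.10, 5.08 and 3.997 CPM, and Cdt1, which licenses origins, from 37.3, 34.9 and 39.2 to 13.2, 16.6 and 13.6 CPM. Doubling rates and cell numbers are not given in the labels.

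Targets of YAP and TGF beta, regulators of growth and matrix production, had 14 of 21 genes higher and 4 lower (median 0.30). Ccn2, a matricellular protein induced by both, rose from 419.9, 403 and 500.2 CPM to 1366, 1448 and 1619 CPM (log2 1.75 ± 0.08, adjusted p = 5.50e-11). Tgfbr1, the type I receptor, rose from 83.4, 83.9 and 82.8 to 202, 218 and 187 CPM, and Skil, a repressor of SMAD proteins, fell from 191, 204 and 155 to 70.2, 81.0 and 62.9 CPM. The groups were separate for the 3 genes. Ccn2 was at 238, 225 and 222 CPM in the Falcor knockdown, and the knockdowns differed by 2.70 (adjusted p = 3.36e-13).

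Extracellular matrix and protease genes had 11 of 21 members higher and 2 lower (median 0.41). The count of lower members was 1 without ZC3H11A knockdown replicate 1 or replicate 2. The paired basement membrane collagens rose together, Col4a2 from 382, 389.6 and 414 to 1357, 1287 and 1590.0 CPM and Col4a1 from 434, 456 and 476 to 937, 875 and 1103 CPM. Col6a1, a microfibrillar collagen, rose by 1.55 and fibronectin, Fn1, by 0.69. Of the 10 stellate cell and fibroblast markers, 7 had 10 or fewer counts over the 6 libraries, and Col1a2, Col3a1, Dcn and Thy1 had none. The 2 tested ones moved apart, Vim at log2 -1.09 and Des at log2 0.54, and Des was not called without control replicate 2, ZC3H11A knockdown replicate 2 or ZC3H11A knockdown replicate 3. The summed level of the list was 1326 to 1345 CPM in the controls and 574 to 688 CPM after knockdown, and its part in these results was not tested. Integrin and cell adhesion genes were evenly split, 9 of 24 higher and 9 lower. Itgb1, the shared beta chain, fell from 541, 561 and 518 to 165, 157 and 133 CPM, whereas Itga5, the alpha chain of the fibronectin receptor, rose from 111, 119 and 113 to 385, 347 and 424 CPM.

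Genes of hepatocyte identity went both ways. Among 10 secreted hepatocyte proteins, 5 were higher and 3 lower. Alb, albumin, had 52.8, 59.5 and 59.7 CPM in the controls and 20.3, 21.9 and 27.8 CPM after knockdown (log2 -1.30 ± 0.13, adjusted p = 1.98e-07). Apob, the structural protein of very low density lipoprotein, had 92.7, 75.8 and 101 and 229, 264 and 263 CPM. Apoa1, of high density lipoprotein, had 5.67, 6.65 and 5.90 and 27.1, 38.9 and 67.6 CPM. Albumin thus fell where both apolipoproteins rose, with no overlap. Serpina1b, one of several near-identical antitrypsin genes, rose by 1.81, and its value is uncertain for that reason. Against the Falcor knockdown, 9 of the 10 were higher and 0 lower by edgeR, also at an unadjusted p below 0.05. Apoa1 had 0, 0.418 and 0.549 CPM there and Alb 10.9, 10.2 and 12.2 CPM.

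Transcription factors of the hepatocyte were lower in 10 of 22 cases and higher in 1 (median -0.40). The higher one was Hnf4a, the central regulator of hepatocyte genes, at 128, 124 and 127 CPM in the controls and 183, 203 and 223 CPM after knockdown (log2 0.68 ± 0.07, adjusted p = 6.01e-07). Nr1h3, the oxysterol receptor LXR alpha, fell from 13.9, 13.3 and 13.9 to 4.73, 3.75 and 4.54 CPM and Foxa3 from 9.73, 13.5 and 10.7 to 2.64, 4.86 and 4.72 CPM. Each of the 3 was separate between groups. Of the tested biliary markers, 4 of 5 were lower, Spp1 (log2 -1.04) and Krt19 (log2 -0.61) among them, and Krt7 was higher by 0.47. The summed level of the biliary list was 908 to 1001 CPM in the controls and 776 to 857 CPM after knockdown, and its part in these results was not tested.

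Lipid synthesis genes were called in both directions. Of 24 fatty acid and triglyceride synthesis genes, 7 were higher and 11 lower. Fasn, fatty acid synthase, rose from 277, 275 and 283 CPM to 816, 803 and 923 CPM (log2 1.61 ± 0.06, adjusted p = 1.45e-12). Downstream, the desaturase gene Fads2 fell from 334, 320.2 and 343 to 113, 108 and 103 CPM, and Gpam, which starts glycerolipid synthesis, from 118, 111 and 114 to 37.6, 29.8 and 31.1 CPM. The 3 libraries of each group were close and far from the other group. Cholesterol synthesis and uptake had 9 of 25 genes higher and 9 lower, with Sqle, squalene epoxidase, up by 0.71 and Srebf2, the pathway's transcription factor, down (log2 -0.74). In bile acid and hepatic transport, 8 of 10 genes were lower (median -0.70) and 0 higher by edgeR, DESeq2 and limma-voom and at an unadjusted p below 0.05. Abcc4, an efflux pump for organic anions, fell from 273, 269 and 286 to 129, 137 and 146 CPM.

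Detoxifying and amino acid enzymes included large decreases with little spread. Ahcy, which splits S-adenosylhomocysteine and so sustains methylation, had 458, 491 and 460.2 CPM in the controls and 52.3, 47.5 and 53.8 CPM after ZC3H11A knockdown. Its log2 fold change was -3.19 ± 0.07 (SE, adjusted p = 2.35e-15), and the Falcor knockdown was at 191, 179 and 193 CPM. Of 13 urea cycle and amino acid breakdown genes, 7 were lower and 2 higher. Among targets of the antioxidant factor NRF2, 13 of 23 were lower and 5 higher (median -0.32). Gstm1, a glutathione transferase of a family with close copies, went from 593, 614 and 584 to 135, 136 and 139.7 CPM. Srxn1, sulfiredoxin, went the other way, from 108, 92.5 and 98.0 to 310.4, 289 and 388 CPM. The groups of all 3 genes were well apart. Of 20 drug-metabolising enzymes 9 were lower and 4 higher, with Aldh1a1 at log2 -1.19 and the sulfotransferase gene Sult1a1 at log2 2.25.

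The integrated stress and heat shock lists held more lower than higher genes. In the integrated stress response, driven by the factor ATF4, 17 of 29 genes were lower and 4 higher (median -0.37). Atf5 went from 75.0, 86.8 and 86.1 CPM to 17.0, 16.3 and 17.3 CPM (log2 -2.29 ± 0.11, adjusted p = 1.24e-11), and the amino acid transporter gene Slc38a2 from 80.2, 76.9 and 78.7 to 31.5, 32.0 and 31.1 CPM. In the cytosolic heat shock response 9 of 15 were lower and 1 higher (median -0.28). Hspd1 and Hspe1, paired chaperonins that are mitochondrial rather than cytosolic, had log2 fold changes of -1.40 and -1.03. The unfolded protein response was mixed, 7 of 21 higher and 6 lower, and 4 were higher without control replicate 3 or with no filter. Its member Herpud1, of endoplasmic reticulum degradation, fell from 429, 507 and 392.2 to 132, 155 and 124 CPM. Of 23 p53 targets 8 were higher and 6 lower. Ccng1, cyclin G1, was the p53 target with the largest named change, from 1760.0, 1746 and 1404 CPM to 299, 297 and 212 CPM (log2 -2.60, adjusted p = 8.01e-07), and Perp rose by 0.84.

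More ribosomal protein genes were higher than lower, by small amounts. Of 39 tested, 22 were higher, 3 lower and 14 not called, with a median of 0.24, and 17 were higher without control replicate 1. Rpl13 rose from 955, 1048 and 968 CPM to 1524, 1471 and 1543 CPM (log2 0.61 ± 0.06, adjusted p = 3.47e-07). Rpl3 ran against the group, from 38.7, 28.8 and 43.8 to 14.5, 13.2 and 12.2 CPM, and was separate from the controls. Ribosomal protein genes have many processed pseudogenes, so these values are uncertain, and of 117 tested processed pseudogenes 21.4% were higher and 5.13% lower. Nuclear genes of the respiratory chain were 17 higher and 7 lower of 39. Cox5a, a subunit of cytochrome oxidase, rose from 22.1, 20.8 and 24.9 to 91.2, 82.1 and 92.7 CPM, and Sdhc, a membrane anchor of succinate dehydrogenase, fell from 87.6, 98.7 and 99.3 to 34.0, 24.7 and 26.0 CPM. The mitochondrially encoded RNAs had 4 lower members of 15 and 0 higher by edgeR, DESeq2 and limma-voom and at an unadjusted p below 0.05. There were 7 lower without ZC3H11A knockdown replicate 3. Aminoacyl tRNA synthetase genes were 7 higher and 8 lower of 20. Iars, for isoleucine, fell by 1.73 and Dars, for aspartate, fell by 1.64.

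**Figure D5:**
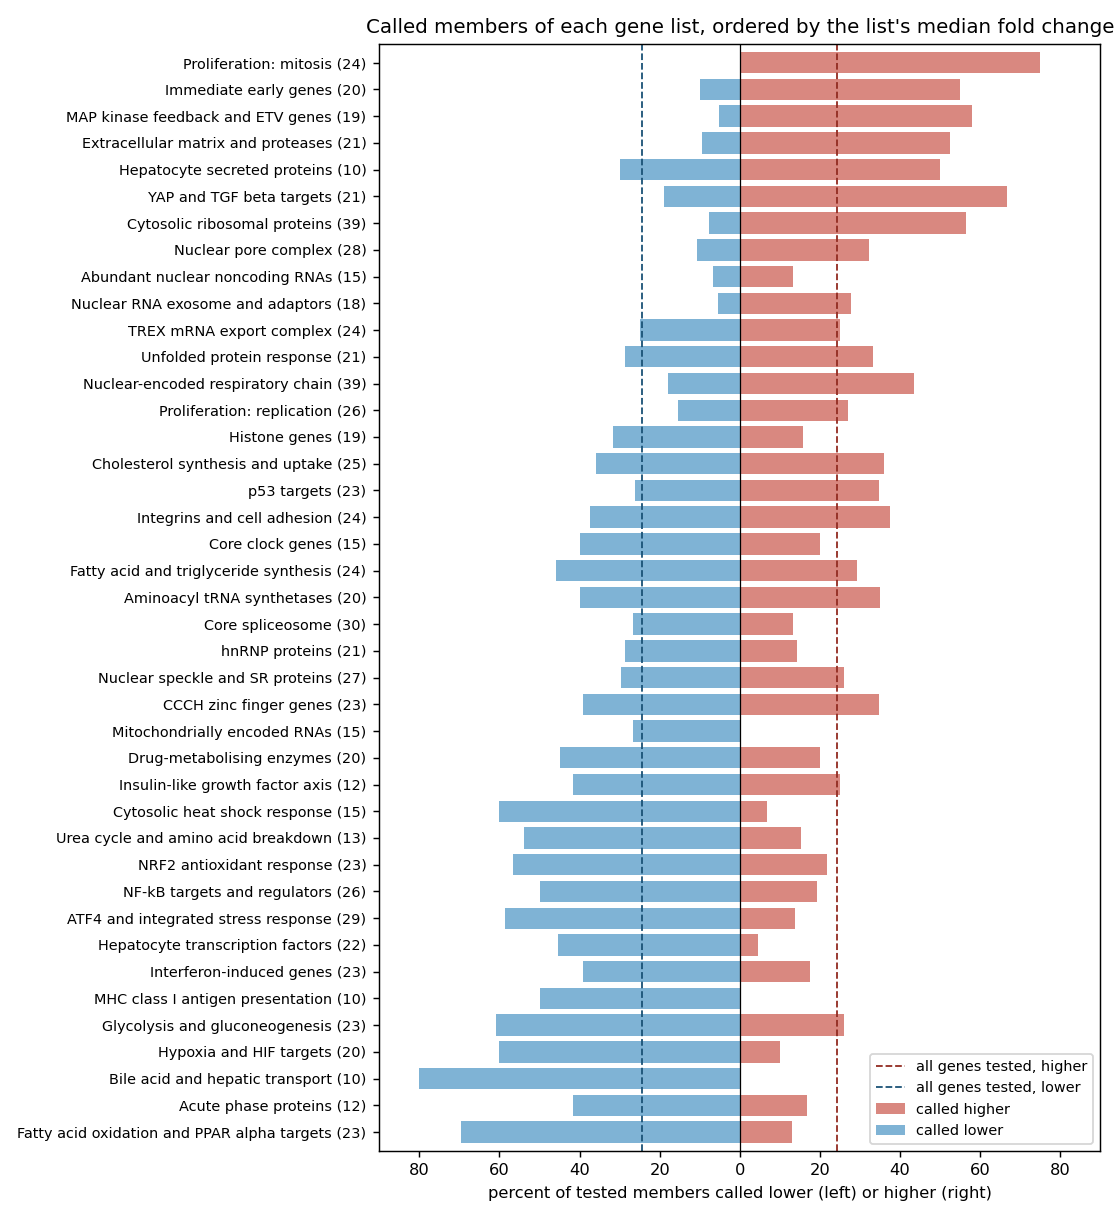
Share of tested members of each gene list called lower (left, blue) or higher (right, red) after ZC3H11A knockdown, in percent, with the number tested in brackets and lists ordered by median log2 fold change; the 4 genes of the targeted loci and the cell type marker lists are not drawn. Dashed lines give the shares of all tested genes, 24.3% lower and 24.2% higher; mitosis, at 18 of 24 higher, is at the top and fatty acid oxidation, at 16 of 23 lower, at the bottom.

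The ZC3H11A and Falcor knockdowns share their control libraries, so their changes against control were not correlated or overlapped, and the knockdowns were instead compared with each other. Of 11871 genes, 6760 differed between them (56.9%). Relative to the Falcor knockdown, 3392 genes were higher (28.6%) and 3368 lower (28.4%) after ZC3H11A knockdown. This split depended on scaling. With no scaling beyond library size it was 2653 higher and 4199 lower, and the median of all genes shifted by -0.15 on the log2 scale. At least 2-fold differences were called for 2525 genes (21.3%). Mitosis genes were higher than with the Falcor hairpin in 21 of 24 cases and lower in 0 by edgeR, also at an unadjusted p below 0.05, and cytosolic ribosomal protein genes in 32 of 39 and 2. The ATF4 list was lower in 18 of 29 and higher in 6. Members whose difference between the knockdowns was not called included Falcor, Slco1a6, Zbed6, Hnrnpu, Eprs and Thoc5. Thoc5 stood at 59.9, 61.9 and 64.2 CPM with the Falcor hairpin and Hnrnpu at 52.9, 53.5 and 49.0 CPM. A difference that was not called does not show that the knockdowns acted alike.

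Gene structure was set against the calls, since ZC3H11A acts on spliced and exported messages. Exon numbers and lengths are those of the longest annotated transcript of each protein-coding gene. Among these, the share called higher was 24.5% for the 539 with 1 exon, 22.7% with 2 to 5 and 23.1% with 6 to 10. It was 27.8% with 11 to 20 and 33.7% with over 20. The share called lower was 22.6%, 24.5%, 27.7%, 26.2% and 24.2% in the same order. By transcript length, 20.1% of protein-coding genes up to 2037 bp and 28.7% of those over 5363 bp were higher. The share called lower was 26.8% in the former and 26.6% in the latter. Of 187 tested lincRNAs, 14.4% were higher and 13.9% lower, against 25.7% and 25.7% of 10499 protein-coding genes. Antisense transcripts were higher in 7.76% and lower in 15.5% of 116 cases. These shares describe genes within the same 6 libraries, and genes are not independent replicates. The classes were not matched for level, and the share called also depends on level. The shares therefore do not show that 1 class responded more than another.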

How the data were processed

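Per the labels' protocols, ribosomal RNA was removed from total RNA and the libraries kept strand. The table holds deposited counts, whole numbers per gene symbol, and the tools listed in the submitters' processing notes are kallisto and DESeq2, the build mm10, with no version or role. For the annotation release, nothing is given in the sources used here. Counts were tested with edgeR 4.0.16 (R 4.3.3): filterByExpr, TMM scaling and a robust quasi-likelihood fit of the 9 conventional hairpin libraries, so that all groups shared 1 estimate of the spread. The procedure was also run on simulated counts, drawn from its own fitted spread, in which only a small part of the genes was changed. That run does not show error rates for a table with as many called genes as this one. Alternatives were other scalings and filters, DESeq2 1.42.0, limma-voom 3.58.1, a replicate block, only the 6 libraries, leaving out each library and, chosen after seeing the data, counting identical rows once. Positions come from GENCODE M21, matched by symbol for 50610 of 56775 rows, and promoters from RefSeq.

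Members and the 47 gene lists, 5 of them cell type markers, were chosen with earlier results of these data known. The genes named are Zc3h11a, Zbed6, Falcor and Foxa2, the 12 largest changes each way among called genes with at least 5 CPM in the higher group and no overlap, and, from each list, up to 4 called members by smallest p. Markers with 10 or fewer counts were named after their counts were seen. A few genes that this rule named are left out of the text and plots, although they stay in the counts and medians.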

Additional observations from a re-analysis of the deposited data

How the results depend on the processing

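No count of called genes over the whole table moved by more than 1.5 times, and no direction of a named gene reversed. Of the 94 counts of higher or lower genes in the lists, 19 moved by more than 1.5 times under at least 1 alternative, and 12 of these were counts of 5 or fewer genes. Genes called after ZC3H11A knockdown numbered 5757, against 5295 by DESeq2, 5837 by limma-voom, 5184 of 8775 genes under the stricter filter of 10 CPM in 3 libraries, and 5096 to 5375 with 1 library left out. Genes called with at least 2-fold change numbered 1664, or 1623 to 1726 with 1 library left out. Of 3169 alternative values for the 199 named genes, 3151 kept their side of the threshold. The others belong to Zfc3h1, Zcchc8, Norad, Des, Cd68 and Cd14, and the cause was not tested. List medians moved by more than their spread in 66 of 751 cases and changed sign in 18, all in lists with medians near 0. Replicate numbers were checked for pairing. For this, each gene's group mean was taken out of its log2 CPM. The remaining deviations of same-numbered ZC3H11A and control libraries correlated at 0.0881, 0.123 and 0.213 over 9655 genes. Each library matched best with its own number, a hint from the data rather than the design. With a replicate block, 5646 genes were called after ZC3H11A knockdown and 6686 between the knockdowns, against 5757 and 6760. Depth of 4732139 to 8837581 counts limits genes with few counts, such as Falcor and most mitosis genes.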

Other observations

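Circadian, insulin-like growth factor and histone genes are not part of the comparisons above. Of 15 core clock genes, 6 were lower and 3 higher after ZC3H11A knockdown, and 1 was higher without control replicate 2. Arntl, the positive arm of the clock, went from 23.6, 17.6 and 22.3 CPM in the controls to 40.5, 49.7 and 49.8 CPM (log2 1.12 ± 0.13, adjusted p = 1.07e-06 by edgeR). Its output genes Dbp and Nr1d2 went from 21.9, 16.7 and 19.7 to 9.19, 6.18 and 6.18 CPM and from 28.02, 28.2 and 28.2 to 16.3, 12.1 and 7.63 CPM. The groups of the 3 genes did not overlap. The labels do not give a time of harvest.

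In the insulin-like growth factor axis, 5 of 12 genes were lower and 3 higher. Igfbp4, a binding protein that holds the factor back, fell from 2908, 3020.0 and 3119 to 1355, 1394 and 1609 CPM and the receptor gene Igf1r from 418, 404 and 398 to 225, 221 and 189 CPM, while Irs2, the adaptor of the insulin receptor, rose from 409, 419 and 343 to 606, 620.3 and 678 CPM. Among 19 histone genes, 6 were lower and 3 higher, with 3 lower without ZC3H11A knockdown replicate 1. The linker histone gene H1f0, which is made outside S phase, rose from 299, 292 and 332 to 552, 551 and 652 CPM, with no overlap. Library preparation removed ribosomal RNA and did not select polyadenylated RNA, per the labels' protocols.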
